A study of Bos taurus with 12 samples.

Results

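Zinc finger genes are described here in peripheral white blood cells (PWBCs) of beef heifers. The members were all genes that the study's supplementary tables name with a symbol starting ZNF, ZFP, ZBTB, ZSCAN or ZKSCAN and that had at least 10 counts in at least 6 of the 12 libraries. The rule gave 73 genes of the 27607 in the count table, and all 73 were among the 13012 genes tested. Each library came from the jugular blood of 1 Simmental-Angus cross-bred heifer, drawn 2 days before artificial insemination (AI). The 6 fertile heifers, labelled Pregnant, were chosen from those that conceived at AI. The 6 subfertile heifers, labelled Open, stayed non-pregnant through AI and a further 60 days with bulls. All 12 were in their first breeding season under the same progesterone, GnRH and prostaglandin synchronisation, and in each group 5 had a reproductive tract score of 4 and 1 had a score of 5. Groups were set from the breeding outcome after the blood was taken. Blood is a mixture of cell types, so fewer cells of a type and less RNA per cell cannot be told apart.

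How the genes came to be named bears on every count below. Only 2911 genes have a symbol in those tables, and the tables were built from these same heifers. Of the 73 members, 4 are there because the study listed them as differentially expressed genes (DEGs), 23 as regulators and 17 as differentially connected genes, with some in more than 1 list. The other 46 appear only in correlated pairs. The count of members past the thresholds was therefore set in part by the naming and is given as a description. Within the rule, the members nearest its limit were ZNF33B, ZNF814 and ZNF25, which reached 10 counts in 7, 8 and 9 libraries, and no named zinc finger gene fell outside it.

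Most of these genes encode C2H2 zinc finger proteins, in which a run of short zinc-binding loops reads DNA sequence. The largest class in mammals joins the fingers to a KRAB domain that recruits TRIM28 and the histone methyltransferase SETDB1, and is best known for silencing transposable elements. BTB (ZBTB) proteins dimerise and recruit corepressors such as NCOR, and many act in lymphocyte development. SCAN-domain proteins pair with each other. ZFP36 and ZFP36L2 differ from all of these, since their CCCH fingers bind AU-rich elements in mRNA and lead to its decay, which limits cytokine output in leukocytes. Classed by general knowledge of the proteins, after their values were known, 25 members were KRAB, 7 BTB, 5 SCAN, 2 CCCH and 31 other zinc finger proteins, and 3 carry such a symbol but have another role (ZBTB8OS, ZFPL1 and ZNF330). ZKSCAN1, ZKSCAN4 and ZKSCAN5, named for both KRAB and SCAN domains, were put in the SCAN class only, so the KRAB counts below leave them out.

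Library totals ran from 14010736 to 21278761 counts, 15625 to 16323 genes had a count, and the members together took 0.222 to 0.267% of each library. No 2 libraries held identical values. Expression is given in CPM, the count scaled to a fixed library size after TMM, which is a share of reads and is not corrected for gene length. A gene was called when edgeR's quasi-likelihood test gave unadjusted P of 0.05 or less and the log2 fold change (log2FC, subfertile against fertile) was 0.5 or more in size, the thresholds of the study. No gene of the whole table passed Benjamini-Hochberg adjustment in edgeR, where the smallest adjusted P was 0.9998 and 341 genes (2.62%) had unadjusted P of 0.05 or less. The smallest adjusted P was 0.266 in DESeq2 and 0.998 in limma-voom.

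Across the family the groups were close together. The log2FC was above 0 for 38 members and below 0 for 35, and its median was 0.016 against 0.0076 over all genes tested. Its median size was 0.114 for the members and 0.112 for all genes. The difference was under 0.25 in size for 56 members and under 0.5 for 64. For 32 members the whole 95% interval of the log2FC lay within 0.5 of zero, and for the rest the data did not bound the difference that tightly. In edgeR 4 members were called, where 1.4% of all genes tested were (1.77% in DESeq2 and 1.1% in limma-voom, which called the same 4). ZNF789 and ZNF25 were higher in subfertile heifers, where 0.661% of all genes were called higher, and ZSCAN2 and ZNF469 were lower, where 0.738% were called lower. These 4 are exactly the members that the study's own DEG list had put in the table. Of the other 69 members none was called, in a background where 0.102% of the genes outside that list were called. Among the 69, 1 had unadjusted P of 0.05 or less in each of edgeR, DESeq2 and limma-voom, against 1.34% of genes outside the list in edgeR. No member passed adjustment.

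**Figure D1:**
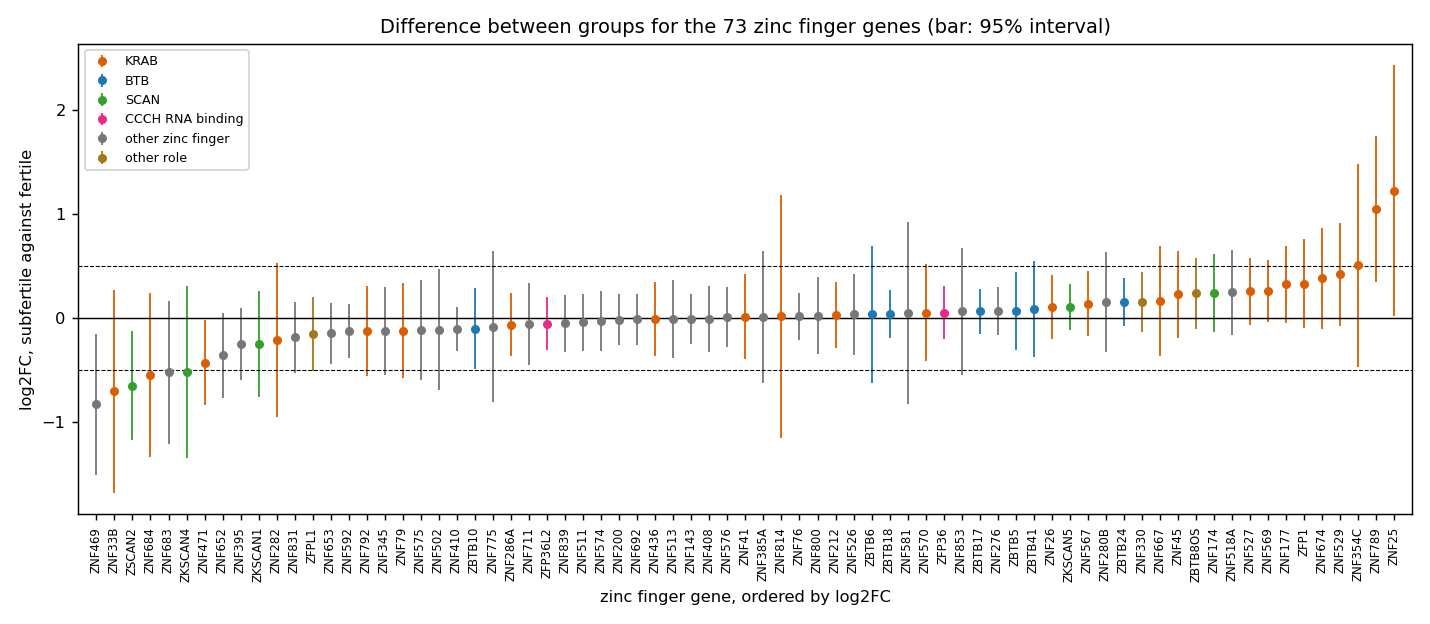
The log2FC of each of the 73 zinc finger genes, subfertile against fertile heifers (n = 6 per group), ordered from lowest to highest; points are edgeR estimates coloured by protein class, bars are 95% intervals and dashed lines mark 0.5 either side of 0. Most points lie near 0 with 38 above it and 35 below, and ZNF469 and ZNF25 hold the ends at -0.83 and 1.22.

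ZNF789 (ENSBTAG00000047572), a KRAB zinc finger gene with little known of its targets, had the smallest edgeR P of the family. In fertile heifers its level was 5.12, 4.28, 7.21, 7.51, 5.93 and 8.34 CPM in replicates 1 to 6. In subfertile heifers it was 6.99, 19.998, 8.21, 5.76, 18.8 and 19.8 CPM. Subfertile replicates 2, 5 and 6 stood at more than 18 CPM, while the other 3 lay inside the fertile range, so the higher group mean came from 3 of the 6 heifers. The means were 6.40 ± 1.55 CPM (SD, n = 6) and 13.3 ± 6.94 CPM (SD, n = 6). The log2FC was 1.05 (SE 0.33; edgeR unadjusted P = 0.00641). The two-sided exact permutation test of mean log2 CPM over all splits of 6 against 6 gave P = 0.0541. ZNF789 was called in all 12 fits that left out a library, with log2FC between 0.90 and 1.20. With group means removed, its r over the 12 heifers was 0.45 and 0.30 with the T cell markers CD3E and CD2. It was 0.65 and 0.01 with the B cell markers CD79A and PAX5, and 0.46, 0.33 and 0.19 with the platelet genes GP9, ITGA2B and TUBB1. Without the 2 heifers farthest from the ZNF789 median, r was 0.74 with CD3E and 0.35 with TUBB1. That r was not worked out for the other markers. The r of ZNF789 furthest from 0 among the listed genes was -0.66 with KLRG1. With the monocyte markers VCAN and CD68 it was -0.50 and -0.12. With the proliferation markers TOP2A and MKI67 it was -0.45 and -0.29. The part of cell makeup in the ZNF789 values was not tested.

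ZNF25 (ENSBTAG00000038178), also of the KRAB class, was at the edge of detection. Fertile replicates 1 to 6 had 1.69, 0, 0.303, 0.741, 0.530 and 0.483 CPM, and subfertile replicates 1 to 6 had 1.77, 1.57, 1.31, 1.49, 2.08 and 0.753 CPM. Fertile replicate 2 had no ZNF25 read, which allows a level of up to 0.225 CPM from counting error alone (3 counts). All 6 subfertile heifers lay above the fertile median, and fertile replicate 1 lay among them. The log2FC was 1.22 (SE 0.56; edgeR unadjusted P = 0.0470), and the exact permutation test gave P = 0.0173. The call was fragile. It held without fertile replicate 1 (1.80), without fertile replicate 2 (0.98) and without subfertile replicate 6 (1.36), and it was lost in each of the other 9 fits that left out a library, with P from 0.0569 to 0.0896. It was also lost in edgeR with library size alone as the scaling (unadjusted P = 0.0613) and with a filter of 1 count in total (0.0517).

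ZSCAN2 (ENSBTAG00000001385), a SCAN-domain zinc finger gene, was lower in subfertile heifers. Its level was 4.07, 3.38, 4.85, 4.50, 4.87 and 4.77 CPM in fertile replicates 1 to 6 and 2.52, 2.36, 1.48, 2.77, 4.11 and 3.66 CPM in subfertile replicates 1 to 6. Every subfertile heifer was below the fertile median, and subfertile replicates 5 and 6 overlapped the fertile range. The log2FC was -0.65 (SE 0.25; edgeR unadjusted P = 0.0197), and the exact permutation P was 0.0108. It was called in all 12 fits that left out a library, from -0.78 to -0.51. Subfertile replicate 3, the lowest, also had 148 CPM of the proliferation marker TOP2A against 23.6 to 42.6 CPM in the other 11 heifers. The r of ZSCAN2 with TOP2A was -0.82 over the 12 heifers and -0.45 without the 2 heifers farthest from the ZSCAN2 median. Without subfertile replicate 3 the log2FC was -0.51 and still called.

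ZNF469 (ENSBTAG00000045507), whose mutation in humans causes brittle cornea syndrome, was also lower in subfertile heifers. Fertile replicates 1 to 6 had 2.85, 2.40, 1.58, 1.98, 2.07 and 1.27 CPM, and subfertile replicates 1 to 6 had 1.305, 0.928, 1.86, 0.569, 1.16 and 0.968 CPM. No subfertile heifer reached the fertile median, though replicates 1 and 3 were inside the fertile range. The log2FC was -0.83 (SE 0.32; edgeR unadjusted P = 0.0198), and the exact permutation P was 0.0130. Without fertile replicate 1, the highest, it was -0.70 and no longer called (edgeR unadjusted P = 0.0522). It fell where CD3E, a T cell marker, was high (r = -0.83 over 12 heifers, Spearman's rho = -0.80), while CD3E itself had a log2FC of -0.12. Among the members, the patterns most like that of ZNF469 were ZNF41 (r = 0.86) and, in the opposite sense, ZNF853 (r = -0.85) and ZFP36L2 (r = -0.70, or -0.39 without the 2 farthest heifers).

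ZNF471 (ENSBTAG00000054887), a KRAB gene that the study did not list as a DEG, was the single member whose groups did not overlap; over all genes tested, 0.123% had groups that did not overlap. Its level was 3.80, 4.43, 4.06, 4.00, 4.67 and 4.53 CPM in fertile replicates 1 to 6 and 3.31, 3.21, 3.45, 2.06, 3.18 and 3.71 CPM in subfertile replicates 1 to 6. The lowest fertile and highest subfertile heifers were 3.80 and 3.71 CPM, a gap smaller than the spread inside either group. The exact permutation P was 0.00216, the smallest that 6 against 6 can give, in a table where 2.71% of all genes had an exact P of 0.05 or less. The edgeR log2FC was -0.43 (SE 0.19; unadjusted P = 0.0407), which is under the fold threshold. Without single libraries that P ran from 0.0354 to 0.0859, and with library size alone as the scaling it was 0.0765. ZNF471 was also one of the steadiest genes for its level, with a within-group SD below all but 0.8% of the genes of like mean.

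**Figure D2:**
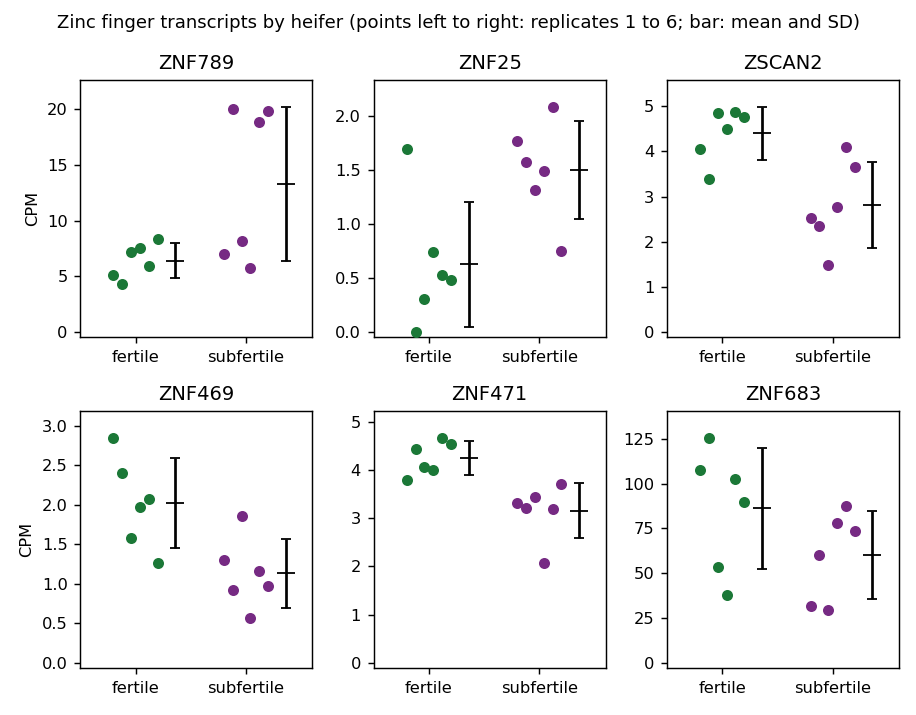
Level in CPM (y axis, from 0) of 6 zinc finger genes in each fertile and subfertile heifer, with replicates 1 to 6 from left to right in each group and the group mean and SD as a bar. ZNF789 is split in the subfertile group, with 3 heifers between 18.8 and 19.998 CPM and 3 between 5.76 and 8.21 CPM, and ZNF471 is the panel in which the groups do not overlap.

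The KRAB class as a whole held mostly weakly expressed genes, with a median level of 8.33 CPM and a range of 0.610 to 34.5 CPM. Its median log2FC was 0.11, and 17 of the 25 genes were above 0, where 51.8% of all genes tested were. The called genes were ZNF789 and ZNF25. The ZKSCAN genes, kept in the SCAN class, are outside these counts, with log2FC of -0.25 (ZKSCAN1), -0.52 (ZKSCAN4) and 0.11 (ZKSCAN5). ZNF33B had a log2FC of -0.70 (SE 0.46; edgeR unadjusted P = 0.146) on at most 25 counts in a library, and ZNF354C, a repressor linked to vascular development, had 0.51 (SE 0.45; edgeR unadjusted P = 0.284). Leaving out single libraries moved ZNF33B from -0.99 (without subfertile replicate 4) to -0.46 (without fertile replicate 1), and ZNF354C from 0.31 (without fertile replicate 2) to 0.78 (without fertile replicate 4). ZNF684 had -0.55 and ZNF529 had 0.42, and neither was called on all 12 libraries. These 2 genes were named after their values were seen. ZNF684 was called without subfertile replicate 3 (-0.79), but without fertile replicate 4 its log2FC was -0.24. ZNF529 was called without fertile replicate 1 (0.55) and without subfertile replicate 4, and its log2FC ran from 0.30 to 0.55 over the fits that left out a library. ZNF41, a gene on the X chromosome in humans, was level between the groups at 10.98 ± 2.56 and 11.1 ± 2.48 CPM (SD, n = 6 each).

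The machinery that KRAB proteins use for silencing was measured through the 5 of 20 listed genes that the tables name. TRIM28, the shared corepressor, was at 320 ± 31.0 CPM in fertile and 313 ± 35.0 CPM in subfertile heifers (SD, n = 6 each), with a log2FC of -0.03. SETDB1 had a log2FC of 0.07, its cofactor ATF7IP 0.10 and the heterochromatin protein CBX1 -0.34 (edgeR unadjusted P = 0.0543). UHRF1, which keeps up DNA methylation in dividing cells, was the 1 called gene of the 5, where 0.661% of all genes tested were called higher, at 0.81 (edgeR unadjusted P = 0.0395), and it is on the study's DEG list. The UHRF1 value rested on subfertile replicate 3, with 79.2 CPM against 14.4 to 26.7 CPM in the other 11 heifers, and without it the log2FC was 0.22. The exact permutation P of UHRF1 was 0.134. Without that library no gene of the 5 partner lists was called.

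The 7 BTB genes differed little between groups, with log2FC from -0.10 to 0.16 and none called. ZBTB18, a repressor best known from neural and muscle development, was the most abundant, with 246 ± 28.9 CPM in fertile and 253 ± 31.6 CPM in subfertile heifers (SD, n = 6 each; log2FC 0.04, 95% interval -0.19 to 0.27). ZBTB24, mutated in a human syndrome of immunodeficiency with centromeric instability, was at 62.8 ± 7.06 and 70.0 ± 10.0 CPM (0.16, interval -0.08 to 0.39), and subfertile replicates 1 and 2 were above every fertile heifer at 83.7 and 81.6 CPM. ZBTB17 (MIZ1), the partner through which MYC represses genes, was at 40.2 ± 3.32 and 42.2 ± 5.44 CPM (0.07, interval -0.15 to 0.29). For these 3 genes the intervals left out a difference of 0.5 in either direction. ZBTB10 had a log2FC of -0.10, with the highest values in fertile replicate 1 (16.9 CPM) and subfertile replicate 1 (16.7 CPM), and ZBTB5 had 0.07. Of 10 listed BTB corepressor genes the tables name 2, and neither TBL1XR1 (-0.09) nor GPS2 (-0.04) was called.

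In the SCAN class, ZSCAN2 was the 1 called gene of 5, where 0.738% of all genes tested were called lower. ZKSCAN1 is also the host of an abundant circular RNA, a form without the polyA tail by which RNA was selected here. ZKSCAN1 had 14.2 ± 3.66 CPM in fertile and 11.9 ± 4.40 CPM in subfertile heifers (SD, n = 6 each). Its log2FC was -0.25 (95% interval -0.76 to 0.26), and it was -0.44 without subfertile replicate 1 and -0.11 without fertile replicate 1. ZKSCAN4, named after its values were seen, had -0.52 (edgeR unadjusted P = 0.199) and was called without subfertile replicate 2 (-0.88).

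The RNA-binding pair was among the members with the largest shares of reads: ZFP36L2 held the largest of all, and ZFP36 came after ZBTB18. ZFP36L2, which restrains lymphocyte proliferation, was at 427, 566, 454, 521, 562 and 549 CPM in fertile replicates 1 to 6 and at 415, 533, 386, 597, 515 and 519 CPM in subfertile replicates 1 to 6. ZFP36 (tristetraprolin) was at 109.1, 138, 151, 141, 129 and 121 CPM and at 120, 140, 102, 158, 164 and 135 CPM. The groups overlapped almost wholly for both genes. The log2FC was -0.05 for ZFP36L2 (SE 0.12; 95% interval -0.31 to 0.20) and 0.05 for ZFP36 (SE 0.12; interval -0.20 to 0.31), so a change of 0.5 lay outside both intervals. Fertile replicate 1 and subfertile replicates 1 and 3 were the 3 lowest heifers for both. Over the 12 heifers their r was 0.67, and 0.29 without the 2 heifers farthest from the ZFP36 median.

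Of the transcripts that these proteins act on or with, none that could be identified by symbol was called in edgeR. The rest could not be looked up, which says nothing of their level. Among the 18 listed genes of mRNA decay 4 were identified. The deadenylase subunits CNOT2 (log2FC 0.06) and CNOT6 (0.04) and the decapping factors DCP2 (0.09) and EDC3 (-0.16) were all close to 0. Among 18 listed transcripts with AU-rich elements 5 were identified. The chemokine CCL4, which is on the study's DEG list, had -0.78 (edgeR unadjusted P = 0.0693; exact permutation P = 0.0476) and was called in a single leave-one-out fit, without subfertile replicate 4 (-1.26). CXCL8 had -0.28, IL1B 0.35, MYC 0.12 and VEGFA 0.04. IL1B varied so much between heifers (8.45 ± 10.3 CPM in fertile and 10.8 ± 8.09 CPM in subfertile, SD, n = 6 each) that only a large change could have been detected.

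**Figure D3:**
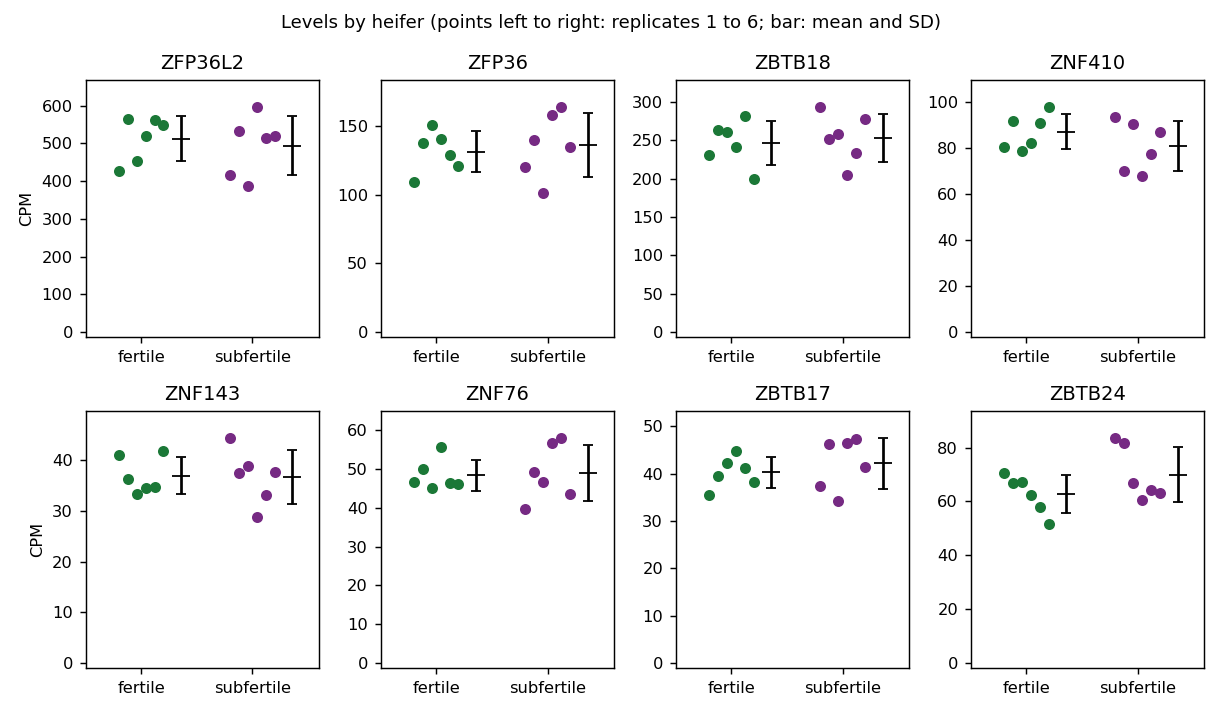
Level in CPM (y axis, from 0) of 8 abundant or well studied members in each heifer, with replicates 1 to 6 from left to right in each group and the group mean and SD as a bar. In every panel the fertile and subfertile points overlap.

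ZNF683 (Hobit) is a transcription factor of tissue-resident and cytotoxic lymphocytes, and it was the fifth most abundant member in CPM. Fertile replicates 1 to 6 had 107, 126, 53.2, 37.8, 103 and 89.8 CPM and subfertile replicates 1 to 6 had 31.8, 59.9, 29.4, 78.02, 87.4 and 73.6 CPM. The 6 subfertile heifers lay under the fertile median of 96.2 CPM, but fertile replicates 3 and 4 lay among them. The log2FC was -0.52 (SE 0.32; edgeR unadjusted P = 0.125; 95% interval -1.20 to 0.16) and the exact permutation P was 0.201. Without fertile replicate 4, at 37.8 CPM, the log2FC was -0.67 and the gene was called (edgeR unadjusted P = 0.0386). Without subfertile replicate 3 the log2FC was -0.38 and the gene was not called. It varied more than nearly any gene of like level: its within-group SD of log2 CPM was 0.68, at percentile 98 among the 500 genes nearest in mean.

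Genes that accompany ZNF683 in cytotoxic and resident lymphocytes did not move in 1 direction. Of 19 listed genes 8 were identified by symbol, and 3 were called, where 1.4% of all genes tested were. The identified genes are those that the study's selected tables name, and all 3 called genes are on its DEG list. KLRG1 was higher (1.13) and GZMB (-1.004) and ITGA1 (-0.84) were lower in subfertile heifers. Their exact permutation P was 0.106, 0.180 and 0.152, and they were called in 10, 4 and 3 of the 12 leave-one-out fits. GZMB moved to -0.66 without fertile replicate 2, and ITGA1 to -0.56 without fertile replicate 6. The lineage factors TBX21 (0.01) and EOMES (0.05) were level, as was PRDM1 (0.09), the paralog that shares targets with ZNF683, and PRF1 had -0.40 (edgeR unadjusted P = 0.0508). With group means removed, the r of ZNF683 over the 12 heifers was 0.45 with GZMB, 0.29 with PRF1, 0.21 with TBX21 and -0.30 with KLRG1. With the T cell markers CD3E and CD2 it was 0.50 and 0.27. Its r furthest from 0 among the listed genes were 0.67 with XBP1 and -0.65 with TOP2A, a gene of dividing cells, and of the 2 plasma cell markers measured XBP1 was at 0.67 and JCHAIN at -0.30. Of the NK and cytotoxic markers, GZMB and PRF1 were identified, 2 of 6, and their summed level ran from 70.9 to 158 CPM in fertile and from 70.8 to 111 CPM in subfertile heifers. Their part in the ZNF683 values was not tested.

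Of the 31 other zinc finger genes, 10 had a log2FC above 0, where 51.8% of all genes tested did, and the median was -0.03. ZNF469 was the 1 called gene of this class, where 0.738% of all genes tested were called lower. The regulators named in this paragraph were picked from the class, and their differences were small. ZNF143, which binds promoters and looping sites, was at 36.9 ± 3.59 CPM in fertile and 36.8 ± 5.31 CPM in subfertile heifers, and its paralog ZNF76 was at 48.3 ± 3.95 and 49.0 ± 7.27 CPM (SD, n = 6 each). The 95% intervals of their log2FC were -0.24 to 0.23 and -0.21 to 0.24. ZNF410, whose known task is to activate CHD4, was at 87.0 ± 7.59 and 80.9 ± 10.8 CPM (log2FC -0.10, interval -0.32 to 0.11). ZNF276 (0.07), ZNF692 (-0.01), ZNF711 (-0.06) and ZNF800 (0.03) were close to 0, and each of these 4 changed sign when single libraries were left out.

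Further regulators did not pass the test. ZNF652, a corepressor partner, was at 14.2 ± 2.57 CPM in fertile and 11.1 ± 2.80 CPM in subfertile heifers, with every subfertile heifer under the median of the fertile group (log2FC -0.36, SE 0.19; edgeR unadjusted P = 0.0796, exact permutation P = 0.0866). ZNF395, which responds to hypoxia and interferon signals, was at 74.4 ± 13.8 and 62.7 ± 15.3 CPM, with 5 of 6 subfertile heifers below it (log2FC -0.25, SE 0.16; edgeR unadjusted P = 0.145). ZNF385A, an RNA- and p53-binding protein of myeloid cells, had 14.4 ± 4.16 and 14.6 ± 7.00 CPM (log2FC 0.02), and its spread ran with the neutrophil transcript S100A9 (r = 0.80 over 12 heifers, rho = 0.84). Of the proteins of other role, none was called. ZBTB8OS (archease), a cofactor of the tRNA ligase, had a log2FC of 0.24 with all 6 subfertile heifers above the fertile median (95% interval -0.10 to 0.58, exact permutation P = 0.152). ZNF330 had a log2FC of 0.16. How many of all genes tested had every subfertile heifer on 1 side of the fertile median was not counted. Leaving out single libraries moved ZBTB8OS from 0.15 (without fertile replicate 6) to 0.32 (without fertile replicate 2). For ZNF330 the range was 0.085 (without subfertile replicate 3) to 0.22 (without subfertile replicate 6).

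Heifers of the same group differed in these genes about as much as in other genes. The pooled within-group SD of log2 CPM had a median of 0.312 over the members and 0.304 over all genes tested. Among members of 1 CPM or more, ZNF200 (SD 0.15), ZBTB17 (0.16) and ZNF410 (0.16) were the steadiest. ZNF25 (0.99), ZNF354C (0.81), ZNF581 (0.77) and ZNF683 (0.68) varied most. The first 3 of these had mean levels near 1 to 3 CPM, where counting error is part of the spread, whereas ZNF683 was at 73.1 CPM. Against the 500 genes nearest in mean level, 1 member lay above percentile 95 (ZNF683) and 3 lay below percentile 5.

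**Figure D4:**
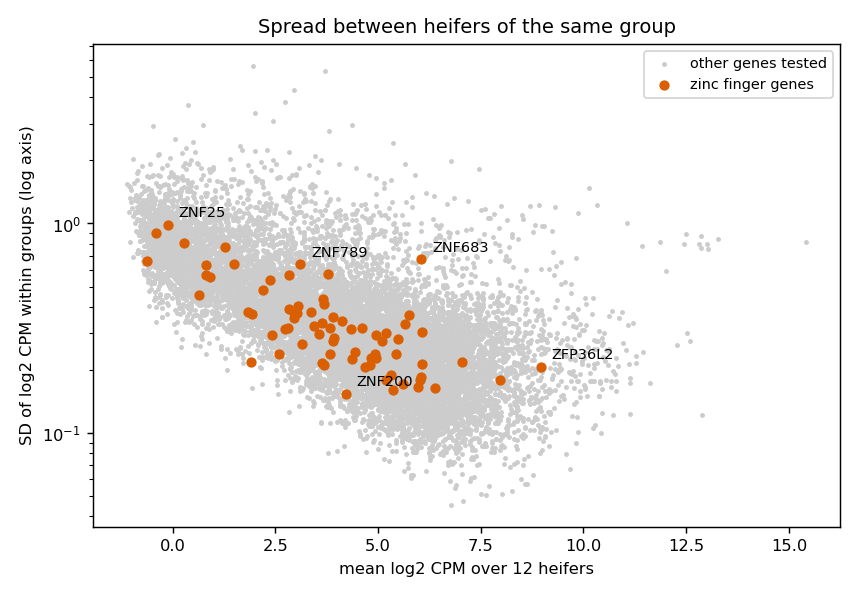
Pooled within-group SD of log2 CPM (y axis, log scale) against mean log2 CPM over 12 heifers (x axis) for the 73 zinc finger genes (orange) and the other genes tested (grey). The members follow the band of the other genes, with a median SD of 0.312 against 0.304, and ZNF683 lies above that band at its level.

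The members did not vary as a single family. Over the 2628 pairs of members, r of log2 CPM with group means removed was 0.8 or more in size for 63 pairs (2.40%), 34 positive and 29 negative, while 2.39% of all pairs of genes tested reached that size. The median r was 0.03. Leaving out single libraries moved the 63 pairs to between 42 (without subfertile replicate 1) and 111 (without fertile replicate 6). Pairs of genes in 1 library share its depth, scaling and cell makeup, the members were named partly from tables of correlated pairs, and no test is given. The 5 pairs of largest r, named for that, were ZBTB6 with ZFPL1 (-0.96), ZNF518A with ZNF526 (-0.93), ZFP36L2 with ZNF212 (0.93), ZBTB17 with ZFP36 (0.93) and ZBTB41 with ZNF692 (-0.92). The paralogs ZNF143 and ZNF76 ran opposite to each other (r = -0.74, rho = -0.61, and -0.48 without the 2 heifers farthest from the ZNF143 median).

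Instead the members fell along a gradient with 2 ends. The first principal component held 38.0% of the members' variance, and for 26 members r with it was 0.7 or more in size. On one side were 22 of the 25 KRAB genes and 6 of the 7 BTB genes, among them ZNF569, ZNF570, ZNF436, ZBTB41 and ZBTB6. On the other were both CCCH genes (ZFP36 0.82, ZFP36L2 0.77), ZBTB17 (0.80), ZNF76 (0.78), ZNF653 (0.93) and 19 of the 31 other zinc finger genes. Of the ZKSCAN genes, which the KRAB count leaves out, ZKSCAN5 (0.56) lay on this second side. ZKSCAN1 (-0.75) and ZKSCAN4 (-0.37) lay on the first. The scores have group means removed, so each group has heifers on both sides by construction. The heifers furthest towards the KRAB end were subfertile replicate 1 (score -0.59), fertile replicate 1 (-0.39) and subfertile replicate 3 (-0.30). Subfertile replicates 5 (0.49) and 4 (0.36) lay at the opposite end.

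The gradient was not particular to zinc finger genes. The first component of all genes tested, which held 31.2% of their variance, ordered the heifers in nearly the same way (r = 0.98 between both components over the 12 heifers). It also ran with library measures: over the 12 heifers, with group means removed, r of the member component was -0.86 with the TMM scaling factor (0.896 to 1.11), -0.57 with the number of genes detected, 0.54 with the share of the most abundant gene (1.82 to 7.40%) and -0.13 with total counts. The share of reads in the members followed it at -0.65. The part of library make-up in the gradient was not tested. With the all-gene component in the model, an alternative chosen after seeing the data, the same 4 members were called.

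**Figure D5:**
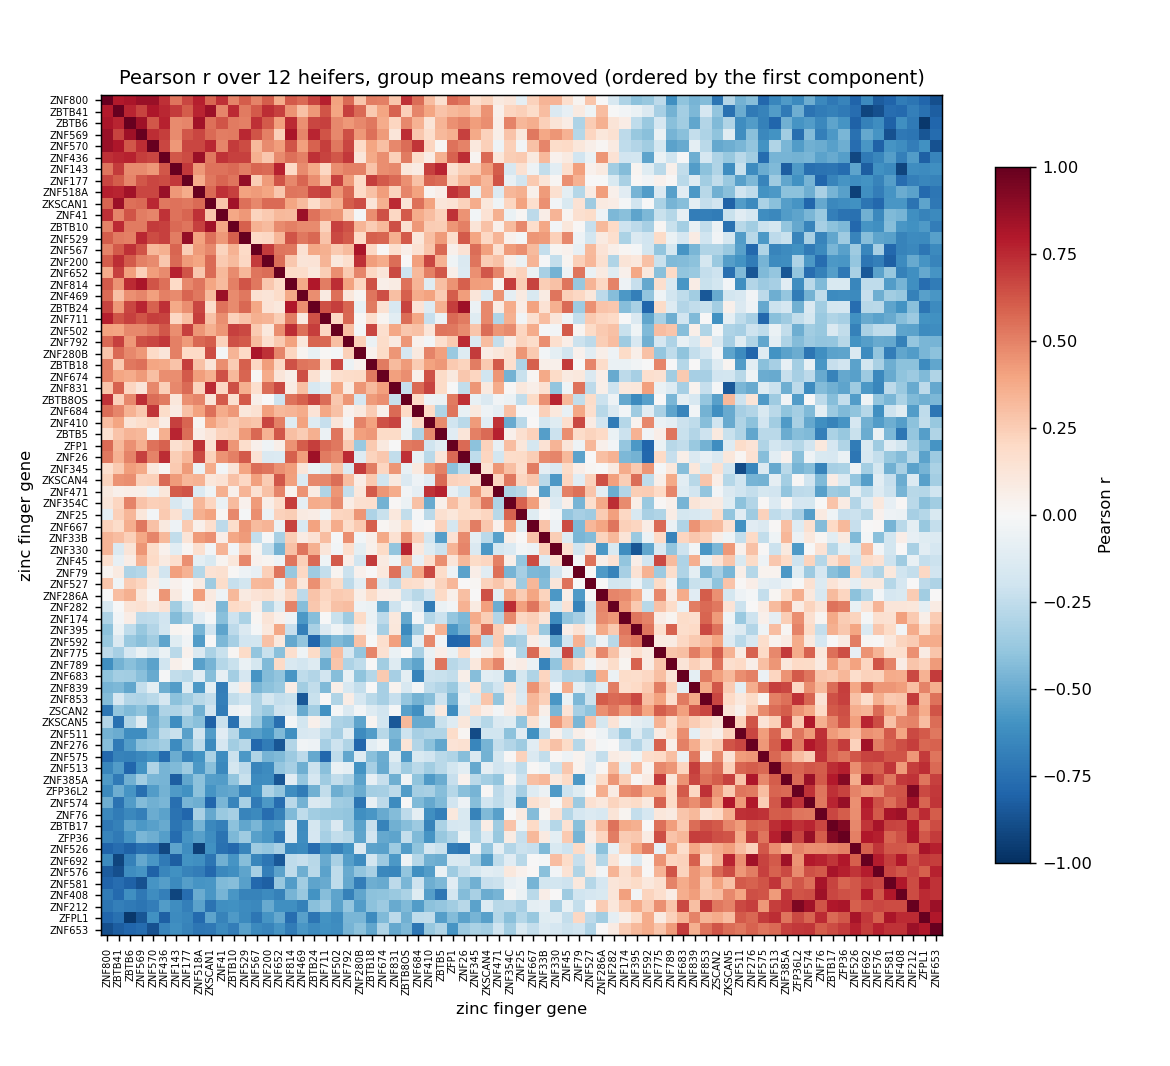
Pearson r of log2 CPM with group means removed, over 12 heifers, for every pair of the 73 zinc finger genes (both axes, ordered by r with the first component; red is positive, blue negative). One block holds most KRAB and BTB genes from ZNF800 to the middle, the other runs up to ZNF653 with ZFP36, ZFP36L2 and ZBTB17, and r is mostly negative (blue) between the far ends of the order.

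Some members ran with or against genes of the marker and partner lists. ZNF831 and the B cell factor PAX5 had r = 0.93 (rho = 0.87, and 0.91 without the 2 heifers farthest from the ZNF831 median), the largest r of any member with a marker or partner gene, while ZNF831 had r = 0.0031 with CD79A, the other B cell marker measured. ZNF831 also had r = 0.83 with the corepressor gene TBL1XR1 and 0.81 with CBX1. ZNF831 itself had a log2FC of -0.18 (edgeR unadjusted P = 0.269). Leaving out single libraries moved it from -0.28 (without subfertile replicate 6) to -0.10 (without subfertile replicate 2). PAX5 was called lower at -0.51 (edgeR unadjusted P = 0.0487, exact permutation P = 0.0519) and is on the study's DEG list. The PAX5 call held in 4 of the 12 leave-one-out fits, and its log2FC was -0.39 without subfertile replicate 2. ZFP36L2 ran with CD3E (r = 0.87) and with the platelet gene GP9 (r = 0.83), and ZNF410 ran opposite to the monocyte and macrophage marker CD68 (r = -0.90). ZNF692 and ZNF143 ran with and against TRIM28 (r = 0.91 and -0.86). With the all-gene component, r was 0.86 for TRIM28, 0.84 for GP9 and 0.80 for CD3E, and 0.35 for CD68 and -0.41 for PAX5. Of the members, it was 0.79 for ZNF692, 0.73 for ZFP36L2, -0.68 for ZNF143, -0.44 for ZNF831 and -0.37 for ZNF410. The part of that component in these pairs was not tested. These pairs were picked after their values were seen from many r over the same 12 heifers, pairs not named here reached like sizes, and all are descriptions only.

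The marker lists could be read only in part, since few of their genes are named in the tables. The tables name 2 of 6 B cell, 2 of 7 T cell, 2 of 5 monocyte, 2 of 7 neutrophil, 3 of 6 platelet, 2 of 4 plasma cell and 2 of 5 proliferation markers, and no gamma delta T cell, erythroid or eosinophil and basophil marker. T cell (CD3E) and B cell (CD79A) transcripts were at 322 to 740 CPM and 335 to 719 CPM in every heifer, as the label of white blood cells has it. Platelet transcripts were also present: TUBB1 was at 7705 CPM in fertile replicate 6 and at 350 to 2517 CPM in the other 11 heifers. Of these markers PAX5 and GZMB were called lower in subfertile heifers, where 0.738% of all genes tested were called lower. The plasma cell gene JCHAIN (log2FC 0.59) and TOP2A (0.84) were called higher, where 0.661% of all genes tested were. All 4 are on the study's DEG list. Without subfertile replicate 3 the log2FC was 0.17 for TOP2A and 0.44 for JCHAIN, and neither was called. The other plasma cell marker, XBP1, had a log2FC of -0.02. The 3 platelet genes had log2FC of -1.22 (GP9), -1.09 (TUBB1) and -0.34 (ITGA2B), and none was called. Fertile replicate 6 was also highest for GP9, at 31.2 CPM against 0.280 to 8.26 CPM in the other 11 heifers. For ITGA2B it was at 247 CPM against 60.5 to 123 CPM. The log2FC of these genes without that library is not given here. The part of cell makeup in the zinc finger differences was not tested.

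Zinc finger genes often lie in clusters that arose by duplication, so members that neighbour each other were compared. In the gene order of RefSeq on the ARS-UCD2.0 assembly, used only for names and order because the counts were made on ARS-UCD1.3, 70 of the 73 members were found, and 12 pairs had at most 4 genes between them. The median r of these pairs was 0.19. The KRAB genes ZNF569 and ZNF570, with no gene between them, had r = 0.74 (0.49 without the 2 farthest heifers), while ZNF527, next to ZNF569, had r = 0.21 with it. ZNF789 lies next to ZKSCAN5, whose log2FC was 0.11 against 1.05 for ZNF789, with r = 0.17. ZNF33B and ZNF25, 2 genes apart, had log2FC of -0.70 and 1.22 and r near 0. Reads that fit more than 1 member of such a cluster are not counted by STAR, so levels of near-identical members are uncertain.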

How the data were processed

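PolyA RNA from PWBCs was sequenced from directional libraries. The authors mapped reads with STAR 2.7.5 to ARS-UCD 1.3 and deposited raw counts per gene (Ensembl release 109) from its gene count mode, which keeps uniquely mapped reads. The strand column they took is not given in the sources used here. Symbols came from the study's supplementary tables. The members and gene lists were chosen with earlier results of these data known.

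The deposited counts were tested in edgeR 4.0.16 (R 4.3.3): filterByExpr with the groups and a minimum count of 10, TMM scaling, and the quasi-likelihood test with group as the only term. The study used DESeq2; here DESeq2 1.42.0 and voom in limma 3.58.1 were alternatives. P-values were adjusted by Benjamini-Hochberg over all 13012 genes. Log2 CPM used a prior count of 2. Single genes had a two-sided exact permutation test over all splits of the 12 heifers. Correlations used log2 CPM residuals from group means. Other alternatives were RLE factors, library size alone, 3 gene filters, the reproductive tract score as a term, and leaving out each library. The script was tested on simulated data. Replicate numbers follow sample order and pair nothing. P-values set the difference between groups against the variation between heifers.

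Named genes were those with edgeR P of 0.05 or less, the 6 most abundant, and the 3 with the largest log2FC each way. Of the members of 1 CPM or more, the 4 most and 3 least variable were named. Members with a well known role and those on the study's DEG list were also named. So were the 3 nearest in pattern to each of the 3 smallest edgeR P. Other names were chosen after their values were seen. Zinc finger genes not named in those tables, and protein or promoter sequences, were not analysed here.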

Additional observations from a re-analysis of the deposited data

Results flagged for a closer look

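The 33 genes chosen by the naming rule gave 66 groups of 6 heifers, and in 3 of them an end sample stood apart from its nearest neighbour by more than Dixon's 95% critical value for 6 samples, taken as a share of the group's range. Chance alone would give this in about 1 in 20 groups. ZBTB10 was at 16.7 CPM in subfertile replicate 1, with the next subfertile heifer at 11.9 CPM. ZNF471 was at 2.06 CPM in subfertile replicate 4, with the next at 3.18 CPM; without that library its log2FC was -0.33 (edgeR unadjusted P = 0.0859). ZNF581 was at 4.50 CPM in fertile replicate 4, with the next fertile heifer at 2.48 CPM.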

How the results depend on the processing

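Of the members, 4 were called with DESeq2, limma-voom, RLE factors, 10 counts in 6 of 12 libraries, the tract score or the all-gene component, and 3 with library size alone or a filter of 1 count in total. With 10 CPM in 9 of 12 libraries 43 members were tested and 0 called, since the called genes other than ZNF789 never reach that level and ZNF789 reaches it in 3 heifers. Without the members listed as DEGs (chosen after seeing the data) 0 were called. Over all genes the 182 calls became 230 with DESeq2, 143 with limma-voom, 624 with 1 count in total, 37 with 10 CPM in 9 of 12 libraries and 13 without the listed DEGs. The 4 calls in the partner lists became 1 with limma-voom and 2 with library size alone. Leaving out single libraries gave 3 to 4 members called, 118 (without fertile replicate 6) to 357 (without fertile replicate 1) genes called, 0 to 3 partner genes called, 42 to 111 member pairs with r of 0.8 or more in size, and a median SD of 0.288 to 0.321. On variance-stabilised counts the pairs were 62 and the median SD 0.197.

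The log2FC changed sign for small differences. With library size alone it was 0.0114 for ZNF143, 0.0088 for ZNF200 and -0.0068 for ZNF385A. With limma-voom it was -0.0852 for ZNF385A, -0.0148 for ZNF576, -0.19 for ZNF581 and -0.0812 for ZNF853. With the tract score it was -0.0697 for ZNF581. With the all-gene component it was -0.0868 for ZNF385A, -0.00049 for ZNF576, -0.13 for ZNF581 and -0.0091 for ZNF800. The cause was not tested. Leaving out single libraries, the sign changed within these ranges: ZBTB10 -0.23 to 0.0077, ZBTB18 -0.0148 to 0.0947, ZFP36 -0.0054 to 0.13, ZFP36L2 -0.12 to 0.0077, ZNF143 -0.0688 to 0.0539, ZNF200 -0.085 to 0.037, ZNF276 -0.0016 to 0.14, ZNF385A -0.21 to 0.16, ZNF41 -0.0894 to 0.12, ZNF576 -0.0798 to 0.0764, ZNF581 -0.17 to 0.31, ZNF692 -0.0886 to 0.043, ZNF711 -0.14 to 0.0651, ZNF76 -0.0358 to 0.0734, ZNF800 -0.0985 to 0.13 and ZNF853 -0.12 to 0.24.

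No paired analysis was possible because the groups hold different heifers and the labels pair none of them. ZNF25, ZNF33B, ZNF354C and ZNF814 rest on at most 40 counts in a library.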
